A study of Vitis vinifera with 15 samples.

Results

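The 6 genes described here encode enzymes of the mevalonate pathway, the cytosolic route to isoprenoids in plants, and of the steps that follow it. They were taken as the rows with 6 fixed identifiers from the 31924 genes of the deposited table. They are 3-hydroxy-3-methylglutaryl-CoA synthase (HMGS, VIT_02s0025g04580), 3 genes for HMG-CoA reductase (HMGR, VIT_04s0044g01740, VIT_03s0038g04100 and VIT_18s0122g00610), isopentenyl diphosphate isomerase (IPP isomerase, VIT_04s0023g00600) and farnesyl diphosphate synthase (FPP synthase, VIT_19s0015g01010). The table holds identifiers only, so these names are the ones under which the identifiers were selected, and the reference list of grape genes at hand matched 0 of the table's identifiers. All 6 genes passed the filter on low values (1 FPKM or more in no fewer than 3 of the 15 libraries), which left 18238 genes for the tests.

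The samples were berry skins of 5 table grape cultivars, recorded as Vitis vinifera and labelled as ripening stage, with 3 RNA-seq libraries per cultivar. The paper places strawberry aroma mainly in American varieties and hybrids. An effect of ancestry on the mapping of reads was not tested. The muscat aroma type is represented by Shine muscat, Midknight Beauty and Centennial Seedless, the strawberry type by Summer Black, and the neutral type by Victoria, the control. The aroma types are those given by the paper. No treatment or engineered change separates the groups, so each contrast compares whole cultivars, and the strawberry and neutral types consist of a single cultivar each. The labels give libraries 1, 2 and 3 as replicates of the ripening stage, as do the study's results and its sequencing summary, whereas its methods give the same numbers to skins of 3 growth periods. They were treated as replicates, and the levels by number are given at the end.

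In the cytosol, HMGS joins acetoacetyl-CoA and acetyl-CoA to HMG-CoA, and HMGR, a membrane enzyme of the endoplasmic reticulum, reduces this to mevalonate in the step generally regarded as rate-limiting. After phosphorylation and decarboxylation, IPP isomerase interconverts IPP and its isomer DMAPP, the starter for chain elongation. FPP synthase then builds farnesyl diphosphate, the precursor of sesquiterpenes and of sterols. The monoterpenes typical of muscat aroma are usually made in the plastid from the separate methylerythritol phosphate (MEP) pathway, whose entry enzyme is deoxyxylulose phosphate synthase (DXS). IPP isomerase activity can serve either pool, because both routes deliver IPP.

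Levels are given as FPKM, fragments of a gene scaled to its transcript length and to the mapped fragments of the library, so that genes may be set beside each other per length. Libraries summed to 718652 to 786207 FPKM, with 9440 to 10976 genes each at 0. Read counts per gene were not used here, so the depth behind a single value is unknown and no counting interval was computed. In the study's sequencing summary most reads of Shine muscat replicate 1 did not map, and its mapped share was the lowest. Summer Black replicate 3 came next, also well below the other libraries. Values without Shine muscat replicate 1 are given for the gene that turns on Shine muscat. Calls of IPP isomerase that were lost without Summer Black replicate 3 are given with their contrasts. No marker of berry skin is annotated by identifier in the sources used here, so the labelled tissue was not checked against markers. In whole skin, fewer cells of a type and less RNA per cell cannot be told apart.

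Of the 6 genes, only that of IPP isomerase passed the test of a difference among the 5 cultivars. Its level was 2.74-fold higher in Shine muscat and 2.51-fold higher in Midknight Beauty than in Victoria on the log2(FPKM + 1) scale, while Centennial Seedless, the third muscat cultivar, averaged 73.9 FPKM against 73.3 FPKM in Victoria. HMGS and FPP synthase passed no test in any of the 10 contrasts between cultivars. Of the 30 contrasts of the 3 HMGR genes 1 passed, that of VIT_04s0044g01740 in Shine muscat against Summer Black. Of all genes tested, 3.79% to 15.8% passed per contrast, with 15.8% in Shine muscat against Summer Black. A call means a Benjamini-Hochberg adjusted p of at most 0.01 over all genes tested, from limma on log2(FPKM + 1). The F test over the 5 cultivar means called 1 of the 6 genes, against 25.5% of all genes tested.

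**Figure D1:**
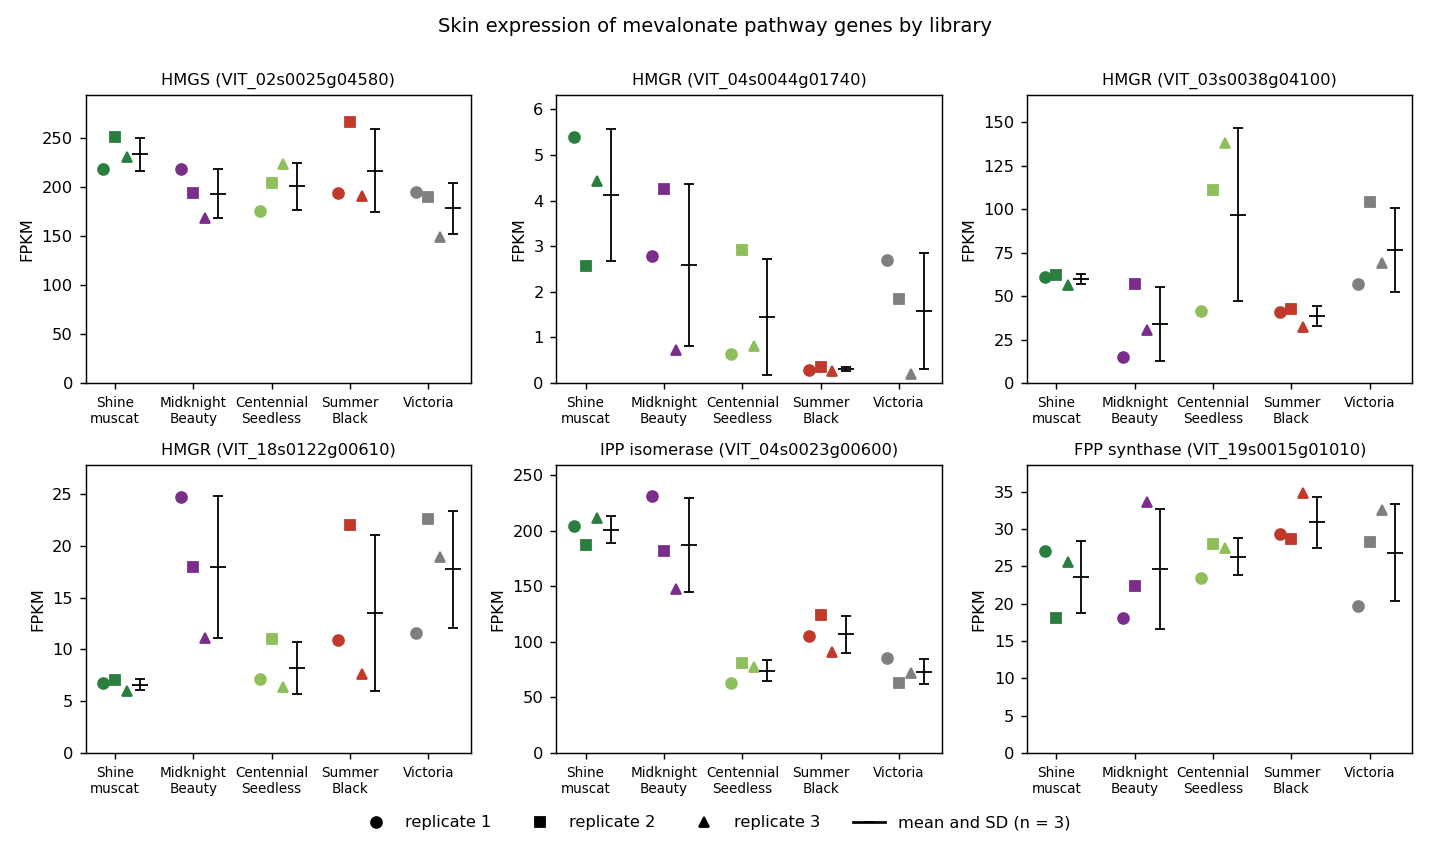
FPKM of the 6 genes in the skin of 5 grape cultivars. Each point is 1 library, its shape gives the replicate number, and the bar beside it is the mean with the SD (n = 3); every vertical axis starts at 0. IPP isomerase lies between 148 and 231 FPKM in Shine muscat and Midknight Beauty and between 63.1 and 124 in the other 3 cultivars.

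HMGS, which makes HMG-CoA, was the most abundant of the 6 transcripts, with a mean over all libraries at the 97.8th percentile of the genes tested. Its libraries held 218, 251 and 230 FPKM in Shine muscat, 218, 193 and 168 in Midknight Beauty, 175, 203 and 223 in Centennial Seedless, 193, 266 and 191 in Summer Black, and 195, 190 and 149 in Victoria. Summer Black replicate 2 was the highest and Victoria replicate 3 the lowest. The cultivar means ran from 233 ± 16.6 FPKM (SD, n = 3) in Shine muscat through Summer Black, Centennial Seedless and Midknight Beauty to 178 ± 25.6 FPKM in Victoria, and no neighbours in this order passed the test (adjusted p = 0.635 to 0.885). Shine muscat libraries lay above all those of Victoria, yet the log2 fold change of 0.39 (SE 0.16) did not pass (adjusted p = 0.1). For the other cultivars against Victoria it was 0.12 in Midknight Beauty (95% confidence interval -0.23 to 0.47), 0.18 in Centennial Seedless (-0.17 to 0.52) and 0.27 in Summer Black (-0.07 to 0.62). HMGS had the smallest coefficient of variation among the 6 genes, 15.1% over the 15 libraries.

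Among the 3 HMGR genes selected here, VIT_03s0038g04100 had the highest mean in each cultivar. How far reads were shared between these related genes was not assessed, so their separate levels are less certain than their sum. Further HMGR genes could not be looked for, because no identifier matched the reference list. VIT_03s0038g04100 had 61.0, 61.9 and 56.6 FPKM in Shine muscat, 14.8, 57.1 and 30.4 in Midknight Beauty, 41.6, 111 and 138 in Centennial Seedless, 41.0, 42.4 and 32.1 in Summer Black, and 57.0, 104 and 68.8 in Victoria. Shine muscat and Summer Black were each tight, whereas Midknight Beauty and Centennial Seedless spread over more than 3-fold within the cultivar. The log2 fold change in Midknight Beauty was -1.29 against Victoria (SE 0.45, adjusted p = 0.113) and -1.51 against Centennial Seedless (SE 0.45, adjusted p = 0.055), neither of them past the threshold. All libraries of Summer Black lay below those of Victoria, but their difference of -0.94 on the log2 scale did not pass (SE 0.45, adjusted p = 0.172). Of the means, that of Centennial Seedless (96.8 FPKM) lay above and those of Shine muscat (59.8), Summer Black (38.5) and Midknight Beauty (34.1) lay below that of Victoria (76.5), and no neighbours in the order of levels passed the test (adjusted p = 0.344 to 0.902). The F test gave an adjusted p of 0.0588 with all libraries and 0.00989, a call, without Centennial Seedless replicate 1.

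The gene VIT_18s0122g00610 was the second HMGR by level and had its own pattern. It stood at 6.77, 7.01 and 6.02 FPKM in Shine muscat, 24.8, 18.0 and 11.1 in Midknight Beauty, 7.19, 11.1 and 6.34 in Centennial Seedless, 10.9, 22.1 and 7.67 in Summer Black, and 11.6, 22.6 and 19.0 in Victoria. Both Shine muscat and Centennial Seedless lay below Victoria in every library, although the lowest Victoria library came close to the highest of Centennial Seedless. Against Victoria the log2 fold change was -1.25 (SE 0.36, adjusted p = 0.0269) in Shine muscat and -1.01 (SE 0.36, adjusted p = 0.128) in Centennial Seedless. Quantile normalization moved the Shine muscat value to -1.40 and past the threshold (adjusted p = 0.00926), and without 1 library at a time it stayed short of it (adjusted p = 0.0111 to 0.0983). Shine muscat against Midknight Beauty, both of muscat aroma, gave -1.25 (SE 0.36, adjusted p = 0.0263). Midknight Beauty and Victoria had nearly equal means, 17.9 ± 6.85 and 17.7 ± 5.61 FPKM (SD, n = 3 each), with a 95% confidence interval of the log2 fold change of -0.79 to 0.78. Below them came Summer Black (13.5 ± 7.56), Centennial Seedless (8.20 ± 2.51) and Shine muscat (6.60 ± 0.515; SD, n = 3 each). None passed against its neighbour in the order of levels (adjusted p = 0.298 to 0.693). Centennial Seedless against Summer Black had a wide 95% confidence interval of -1.36 to 0.22.

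The third HMGR gene, VIT_04s0044g01740, was weakly expressed, at the 18.2th percentile of the genes tested. Shine muscat libraries had 5.40, 2.56 and 4.43 FPKM, those of Midknight Beauty 2.79, 4.25 and 0.717, those of Centennial Seedless 0.631, 2.92 and 0.808, those of Summer Black 0.296, 0.348 and 0.262, and those of Victoria 2.69, 1.84 and 0.200. Summer Black was low in every library, and Victoria replicate 3 was lower still. The means were 4.13 ± 1.44 FPKM in Shine muscat, 2.59 ± 1.78 in Midknight Beauty, 1.45 ± 1.27 in Centennial Seedless, 0.302 ± 0.0431 in Summer Black and 1.58 ± 1.27 in Victoria (SD, n = 3 each), and neighbours in the order of levels did not pass (adjusted p = 0.266 to 0.988). Shine muscat exceeded Summer Black by 1.94 on the log2(FPKM + 1) scale (SE 0.48, adjusted p = 0.00902), where the added 1 shrinks the difference of such low values. The call lay close to the threshold. It was lost without any 1 of Shine muscat replicates 1 (adjusted p = 0.045), 2 (0.0126) and 3 (0.0349), Midknight Beauty replicate 1 (0.012), Centennial Seedless replicate 3 (0.0121), Summer Black replicates 1 (0.0238), 2 (0.0223) and 3 (0.0298), and Victoria replicate 2 (0.0126), with log2 fold changes of 1.76 to 2.18 over all libraries left out. Against Victoria, Shine muscat gave 1.10 (SE 0.48, adjusted p = 0.124) and Summer Black -0.84 (SE 0.48, adjusted p = 0.247).

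Added together, the 3 HMGR genes reached 70.6 ± 3.14 FPKM in Shine muscat, 54.6 ± 21.4 in Midknight Beauty, 106 ± 50.4 in Centennial Seedless, 52.3 ± 12.4 in Summer Black and 95.8 ± 29.3 in Victoria (SD, n = 3 each). VIT_03s0038g04100 supplied 84.8 ± 1.66% of this sum in Shine muscat, 59.7 ± 21.4% in Midknight Beauty, 89.4 ± 5.46% in Centennial Seedless, 74.7 ± 8.12% in Summer Black and 79.7 ± 1.37% in Victoria. VIT_18s0122g00610 supplied 9.35%, 35.8%, 9.26%, 24.7% and 18.5% in the same order of cultivars. VIT_04s0044g01740 had the smallest share in each cultivar mean, between 0.586% in Summer Black and 5.86% in Shine muscat. In Midknight Beauty replicate 1 the order of the first and second gene was turned round, with 35.0% from VIT_03s0038g04100 and 58.4% from VIT_18s0122g00610. Without that library their shares in Midknight Beauty were 72.0% and 24.4%. The composition is a description, and the shares of 1 library are not independent of each other since they add up.

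**Figure D2:**
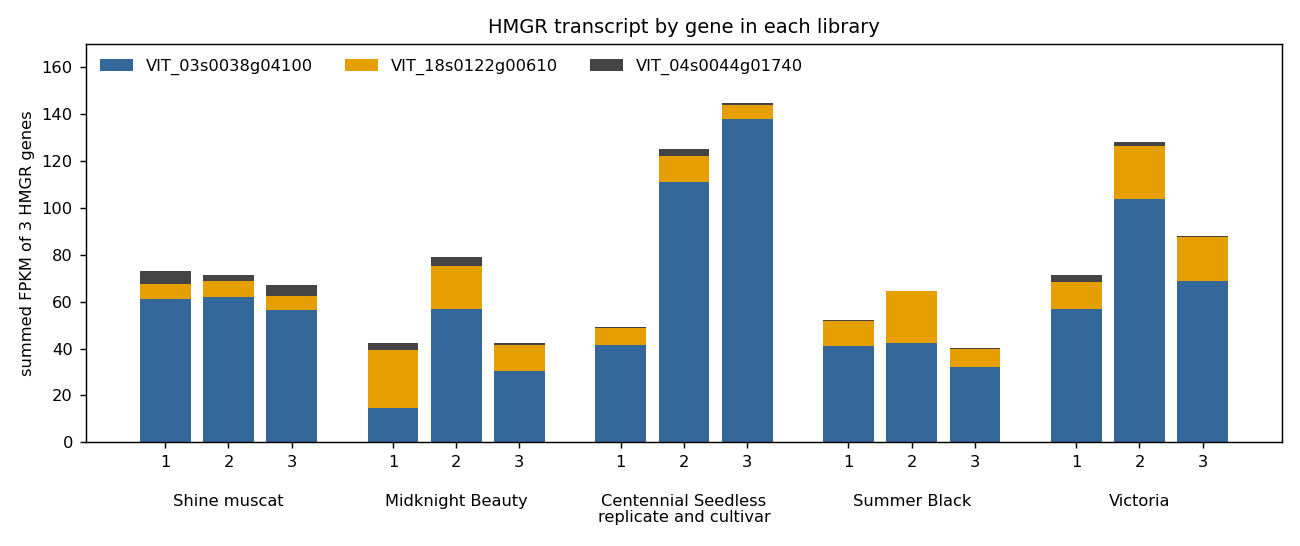
Summed FPKM of the 3 HMGR genes in each of the 15 libraries, stacked by gene, with the replicate number and the cultivar on the horizontal axis and the vertical axis starting at 0. VIT_03s0038g04100 is the largest segment in every library but Midknight Beauty replicate 1, where VIT_18s0122g00610 makes up 58.4%.

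IPP isomerase, which balances IPP and DMAPP, was the second most abundant of the 6 transcripts. Its libraries held 204, 188 and 212 FPKM in Shine muscat, 231, 182 and 148 in Midknight Beauty, 63.2, 81.3 and 77.2 in Centennial Seedless, 105, 124 and 90.9 in Summer Black, and 85.1, 63.1 and 71.7 in Victoria. The 6 libraries of Shine muscat and Midknight Beauty were all above the other 9, and the lowest library of Summer Black (90.9) lay just above the highest of Victoria (85.1). The means were 201 ± 12.3 FPKM in Shine muscat, 187 ± 42.1 in Midknight Beauty, 107 ± 16.7 in Summer Black, 73.9 ± 9.50 in Centennial Seedless and 73.3 ± 11.1 in Victoria (SD, n = 3 each). Of the neighbours in this order, Midknight Beauty and Summer Black differed (adjusted p = 0.00578), while Shine muscat and Midknight Beauty (adjusted p = 0.643), Summer Black and Centennial Seedless (adjusted p = 0.0499) and Centennial Seedless and Victoria (adjusted p = 0.991) did not pass.

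Against Victoria, IPP isomerase rose by 1.45 on the log2 scale in Shine muscat (SE 0.17, adjusted p = 7.4e-05) and by 1.33 in Midknight Beauty (SE 0.17, adjusted p = 0.000304). In both it was 1 of the 6 genes called, where the background was 11.2% of all genes tested for Shine muscat and 3.79% for Midknight Beauty. The Shine muscat value was 1.44 (adjusted p = 0.000776) without replicate 1 of that cultivar. Both calls were kept whichever library was left out, with log2 fold changes of 1.35 to 1.56 and 1.16 to 1.48. A fit of only Midknight Beauty and Victoria, with 3 libraries each, gave the same fold change and no call (adjusted p = 0.0215). Median-of-ratios scaling shifted the median log2 fold change of all genes by -0.11 in Shine muscat against Victoria, against a median of 0.10 without it, and the call of IPP isomerase was kept.

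Neither of the remaining cultivars had a member called against Victoria, with backgrounds of 4.5% for Centennial Seedless and 9.8% for Summer Black. At an unadjusted p under 0.05, limma had 1 of the 6 genes in each, against 19% of all genes tested in Centennial Seedless and 32.6% in Summer Black. In Centennial Seedless the log2 fold change of IPP isomerase was 0.01, with a 95% confidence interval of -0.36 to 0.39. In Summer Black it was 0.54 (SE 0.17, adjusted p = 0.0471). Taken as 1 group, the 9 muscat libraries gave 0.93 against Victoria (SE 0.39, adjusted p = 0.312), at 154 ± 64.4 FPKM (SD, n = 9) against 73.3 ± 11.1 FPKM (SD, n = 3). No member was called in that comparison, against a background of 1.03%, and 1 had an unadjusted p under 0.05 in limma, as had 13.6% of all genes tested. The mean of the 3 muscat cultivars in the fit of 5 cultivars, where their differences do not enter the error, was called at the same fold change (adjusted p = 0.000806).

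**Figure D3:**
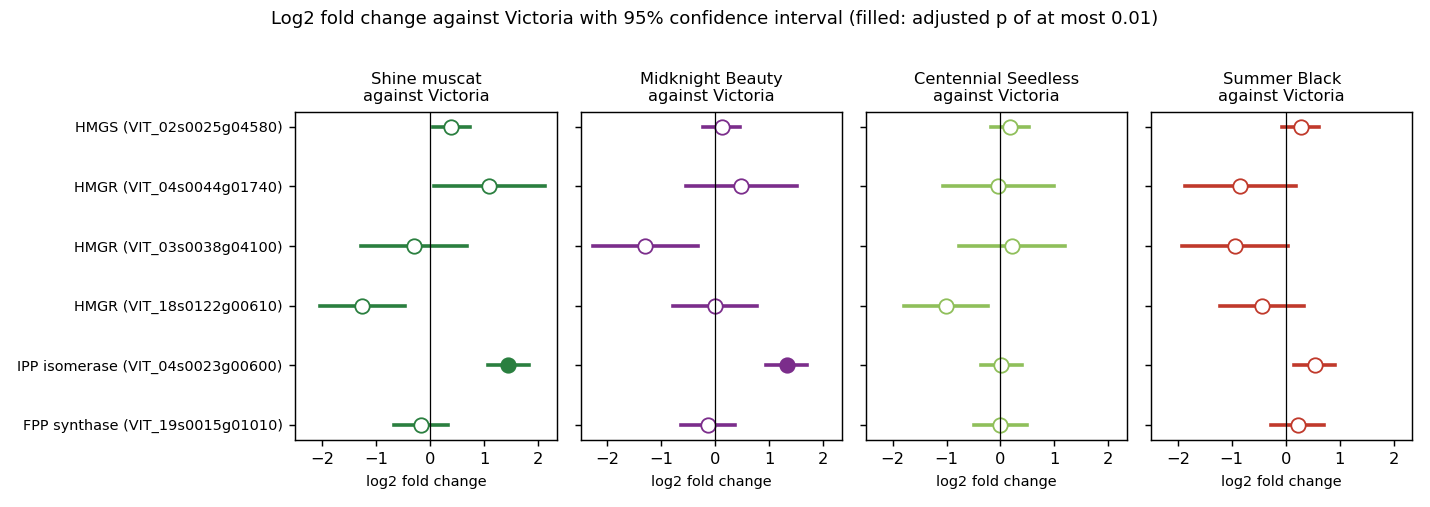
Log2 fold change on the log2(FPKM + 1) scale of each gene in 4 cultivars against Victoria, with the 95% confidence interval from limma as a line and filled symbols where the adjusted p is at most 0.01. The filled symbols are those of IPP isomerase in Shine muscat (1.45) and Midknight Beauty (1.33).

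Among the aromatic cultivars, 5 of 36 member tests were called, 4 of them for IPP isomerase. Shine muscat exceeded Centennial Seedless by 1.44 (SE 0.17, adjusted p = 8.63e-05; 1 member called, background 9.49%) and Summer Black by 0.92 (SE 0.17, adjusted p = 0.00178; 2 called, 15.8%). Midknight Beauty exceeded Centennial Seedless by 1.31 (SE 0.17, adjusted p = 0.000321; 1 called, 5%) and Summer Black by 0.79 (SE 0.17, adjusted p = 0.00578; 1 called, 12.8%). No member was called between Shine muscat and Midknight Beauty (background 11.1%) or between Centennial Seedless and Summer Black (10.9%), where limma had 2 members each with an unadjusted p under 0.05, against 36.2% and 34.1% of all genes tested. For IPP isomerase the interval of the difference between Shine muscat and Midknight Beauty was -0.25 to 0.50. Both contrasts with Centennial Seedless kept their calls without any single library. The contrast of Shine muscat with Summer Black lost its call without Shine muscat replicate 3 or Summer Black replicate 3 (adjusted p = 0.0103 each), and that of Midknight Beauty with Summer Black without Midknight Beauty replicates 1 (0.0262) or 2 (0.017) or Summer Black replicates 1 (0.0147) or 3 (0.0292). In fits of only the cultivars compared, Midknight Beauty was not called against Centennial Seedless (adjusted p = 0.0172) or Summer Black (adjusted p = 0.0589). Of all genes tested, these 2 fits called 346 in place of 911 and 623 in place of 2331. Such fits of Shine muscat called 1782 genes in place of 1731 against Centennial Seedless. Against Summer Black they called 2013 in place of 2873. The 3 member calls of these Shine muscat contrasts were kept.

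**Figure D4:**
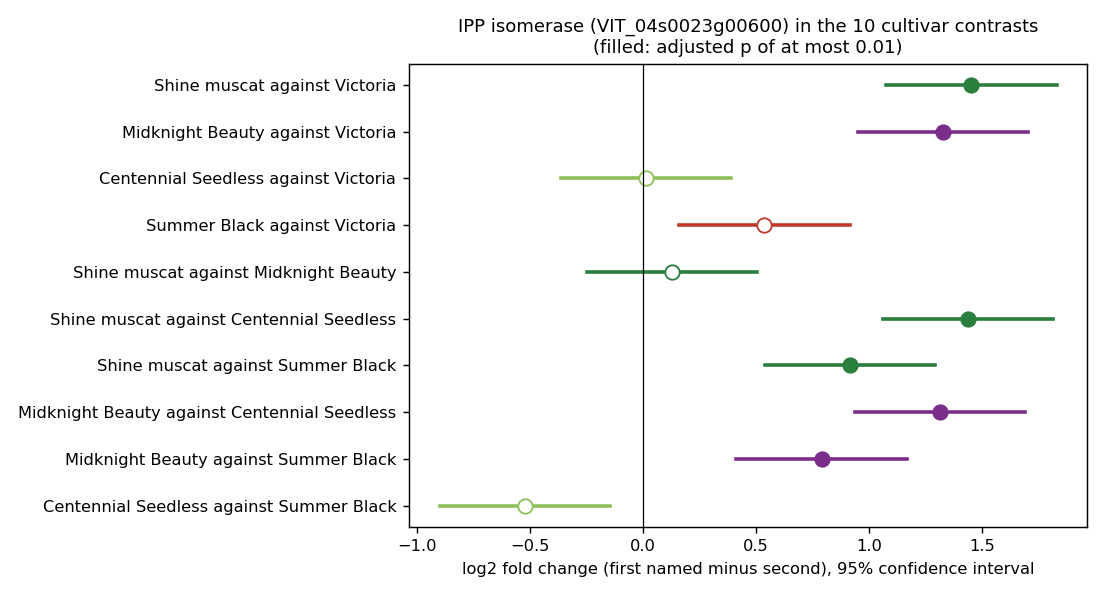
Log2 fold change of IPP isomerase in the 10 contrasts between cultivars, first named minus second, with 95% confidence intervals and filled symbols where the adjusted p is at most 0.01. The 6 filled contrasts set Shine muscat or Midknight Beauty against Victoria, Centennial Seedless or Summer Black.

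Groups that did not overlap were frequent over all genes, so this criterion by itself separates little. In Shine muscat against Victoria it held for 3 of the 6 genes (HMGS, VIT_18s0122g00610 and IPP isomerase), where the background was 44%. It held for 1 gene in Midknight Beauty (22.8%), 1 in Centennial Seedless (22.7%) and 2 in Summer Black (31.7%), each against Victoria. Between Shine muscat and Summer Black it held for 5 of the 6 genes, with HMGS the exception, against 43.7% of all genes tested. The median log2 fold change of the 6 genes was 0.11 in Shine muscat against Victoria (0.10 over all genes), 0.06 in Midknight Beauty (-0.01), 0.00 in Centennial Seedless (0.01) and -0.11 in Summer Black (-0.02).

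FPP synthase, at the branch to sesquiterpenes and sterols, had the smallest share of its variance between cultivars. Shine muscat had 27.1, 18.1 and 25.6 FPKM, Midknight Beauty 18.0, 22.4 and 33.6, Centennial Seedless 23.4, 28.0 and 27.5, Summer Black 29.3, 28.6 and 34.8, and Victoria 19.8, 28.3 and 32.5. Every cultivar overlapped Victoria, and the range of the libraries within Shine muscat, within Midknight Beauty and within Victoria was wider than the range of the means. The log2 fold change against Victoria was -0.17 in Shine muscat (95% confidence interval -0.67 to 0.33), -0.13 in Midknight Beauty (-0.63 to 0.36), 0.00 in Centennial Seedless (-0.50 to 0.49) and 0.22 in Summer Black (-0.28 to 0.72). Differences within these intervals remain compatible with the data of 3 libraries per cultivar. The means lay between 23.6 FPKM in Shine muscat and 30.9 FPKM in Summer Black, with adjusted p of 0.553 or more between neighbours. Summer Black had the highest, 30.9 ± 3.39 FPKM (SD, n = 3), and all its libraries lay above those of Shine muscat, without a call (log2 fold change of Shine muscat against Summer Black -0.39, SE 0.23, adjusted p = 0.24).

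The share of the variance of log2(FPKM + 1) that lay between cultivars was 92.3% for IPP isomerase, 62.4% for VIT_18s0122g00610, 59.6% for VIT_04s0044g01740, 55.4% for VIT_03s0038g04100, 41.1% for HMGS and 23.9% for FPP synthase, beside a median of 58.7% over all genes tested. Per library, the ratio of IPP isomerase to FPP synthase averaged 8.71 ± 1.45 in Shine muscat, 8.44 ± 4.22 in Midknight Beauty, 2.80 ± 0.106 in Centennial Seedless, 3.52 ± 0.868 in Summer Black and 2.92 ± 1.21 in Victoria (SD, n = 3 each). The ratio of IPP isomerase to HMGS was 0.868 ± 0.104, 0.961 ± 0.0929, 0.369 ± 0.0277, 0.497 ± 0.0422 and 0.417 ± 0.0770 in the same order. Its ratio to the summed HMGR level was 2.86 ± 0.271, 3.75 ± 1.60, 0.820 ± 0.401, 2.07 ± 0.181 and 0.834 ± 0.351. On this last ratio Summer Black libraries lay between 1.92 and 2.27, above all those of Victoria (0.492 to 1.19), with a summed HMGR level that was the lowest of the 5 means.

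Over the 15 libraries, log2(FPKM + 1) of the 6 genes was only loosely related. The highest Pearson's r among the 15 pairs was 0.58, between VIT_04s0044g01740 and IPP isomerase, and the lowest was -0.57, between VIT_04s0044g01740 and FPP synthase. HMGS and IPP isomerase gave 0.49, and VIT_03s0038g04100 and IPP isomerase -0.47. These values describe libraries that share cultivars, 3 to each, and carry no test. For each gene the table was also searched for the pattern most like it by the same measure. The closest gene to IPP isomerase was VIT_04s0008g04050 (r = 0.95 over 15 libraries), that to VIT_04s0044g01740 was VIT_01s0010g02440 (0.96), that to VIT_03s0038g04100 was VIT_06s0004g02910 (0.93), and that to VIT_18s0122g00610 was VIT_06s0061g01310 (0.89). The sources used here give no names for these 4 genes, and none of the 6 members was among the 3 closest genes of another.

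Other terpenoid genes were available by identifier only from the study. The 10 taken here (1 DXS, 6 terpene synthases, 2 glycosyltransferases and 1 beta-glucosidase) belong to a longer list of candidates that it chose on these same libraries, so their counts are not independent evidence. With the same fit, 7 of the 10 were called in Shine muscat against Victoria (4 higher, 3 lower), 5 in Midknight Beauty (1 and 4), 7 in Centennial Seedless (3 and 4) and 7 in Summer Black (4 and 3). DXS (VIT_05s0020g02130), the entry to the plastid route, rose against Victoria in Shine muscat (log2 fold change 2.10, SE 0.16, adjusted p = 1.83e-06) and in Centennial Seedless (0.95, SE 0.16, adjusted p = 0.00228), and its value was 0.77 in Midknight Beauty (SE 0.16, adjusted p = 0.0114) and 0.53 in Summer Black (SE 0.16, adjusted p = 0.0385). Midknight Beauty against Centennial Seedless gave -0.18 for DXS on the log2 scale (SE 0.16, adjusted p = 0.583), while IPP isomerase differed by 1.31 in the same contrast. The ratio of IPP isomerase to DXS was 5.90 ± 1.64 in Midknight Beauty and 2.04 ± 0.243 in Centennial Seedless (SD, n = 3 each). The summed HMGR level was 0.868 ± 0.117 times that of DXS in Shine muscat and 5.35 ± 2.22 times in Victoria.

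Because the study's methods differ from its results and from the labels in what the library numbers stand for, the levels were also compared by number. A term for the number, with cultivar in the model, called 0 of the 6 genes and 0% of all genes tested in limma. At an unadjusted p under 0.05, limma had 1 member, VIT_03s0038g04100 (adjusted p = 0.473), against 10.3% of all genes tested. In replicate 2, HMGS, VIT_03s0038g04100 and VIT_18s0122g00610 lay above the mean of their own cultivar in 5 of 5 cultivars, by 0.11, 0.39 and 0.35 on average on the log2 scale, with a smallest deviation of 0.011 for HMGS. This held for 6.2% of all genes tested. FPP synthase did so in replicate 3 in 5 of 5 cultivars, by 0.23 on average (adjusted p = 0.495), as did 3.24% of all genes tested. These cases were singled out after their values were seen, and in replicate 1 none of the 6 genes reached 5 of 5. IPP isomerase showed no common direction, with 3, 2 and 2 of 5 cultivars above their own mean in replicates 1, 2 and 3.

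**Figure D5:**
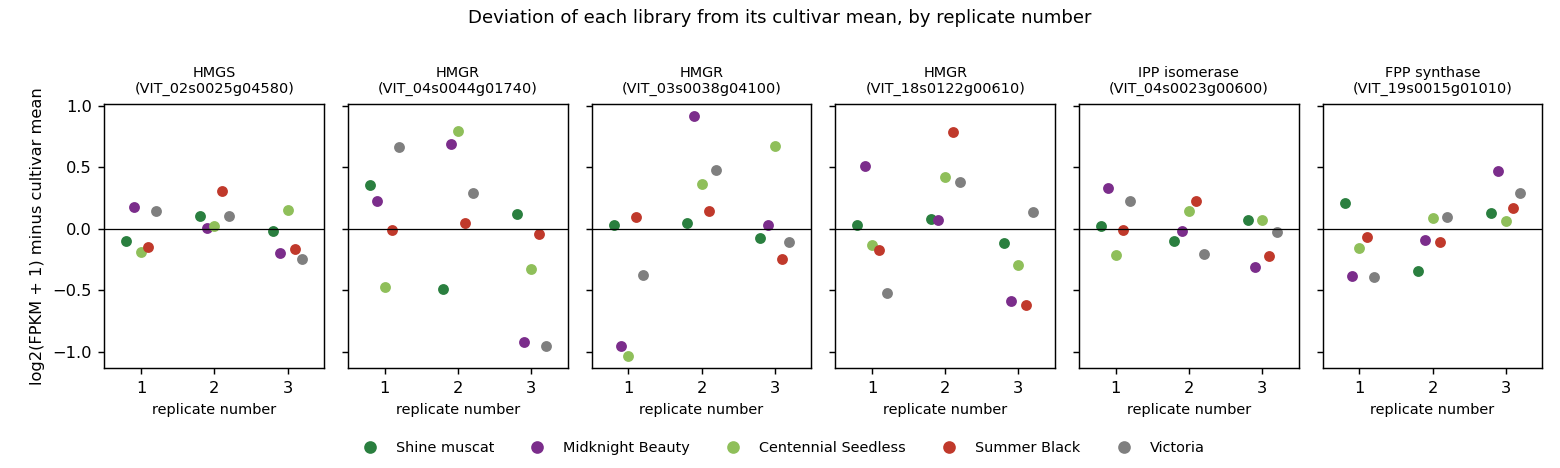
Deviation of each library from the mean of its cultivar on the log2(FPKM + 1) scale, by replicate number, with 1 panel per gene and 1 colour per cultivar. In replicate 2 all 5 points of HMGS, VIT_03s0038g04100 and VIT_18s0122g00610 lie above 0, and in replicate 3 all 5 points of FPP synthase do.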

How the data were processed

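Skin RNA of 5 grape cultivars was sequenced with 3 libraries each. The authors deposited FPKM per gene for 31924 genes, 1997 of them newly assembled. The submitters' processing notes name HISAT2 and StringTie, whereas the paper's methods name Bowtie2 and RSEM on the PN40024 genome, and the library kits named differ too. The program that made the deposited FPKM is therefore uncertain, and a different handling of reads shared between related genes could move the separate HMGR levels. No counts were used, so no count model was fitted.

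Log2(FPKM + 1) of 18238 genes, those that reached 1 FPKM in 3 or more libraries, was fitted with limma 3.58.1 in R 4.3.3 (lmFit, eBayes with a trend), with 1 mean per cultivar over all 15 libraries and 10 residual degrees of freedom, and p-values were adjusted by Benjamini-Hochberg across these genes. A call was an adjusted p of at most 0.01. The 9 muscat and 3 Victoria libraries were fitted separately. Levels, shares and ratios were computed in Python 3.11.15. Per the methods, a replicate was made of grape bunches from 3 vines, and the study calls the libraries biological replicates. P-values measure the spread between these libraries, and 3 against 3 libraries cannot give an exact permutation p under 0.1 for a single gene.

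The members, the lists and the tests were chosen with earlier results of these data known. Genes named are the members, the terpenoid genes the paper gives by identifier, and the gene most like a member by Pearson's r. Alternatives were another pseudocount, filter, scaling, threshold or set of libraries in the fit, a variance without trend, a block for the replicate number or for cultivar, and each library left out. Volatile compounds were not analysed here.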

Additional observations from a re-analysis of the deposited data

Results flagged for a closer look

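In the HMGR composition, Midknight Beauty replicate 1 stood apart from the other muscat libraries. Its share of VIT_03s0038g04100 in the summed HMGR FPKM, 35.0%, was the lowest of the 9 muscat libraries, with a gap to the nearest of 0.616 of the whole range. Its share of VIT_18s0122g00610, 58.4%, was the highest, with a gap of 0.596. Both gaps exceed Dixon's 95% critical value for 9 samples, which chance exceeds in about 1 group in 20. They were 2 of 20 gaps examined over 10 measures, and the 2 shares are parts of the same sum. The 9 libraries come from 3 cultivars with different mean shares (84.8%, 59.7% and 89.4% for VIT_03s0038g04100 in Shine muscat, Midknight Beauty and Centennial Seedless), so they are not 1 population.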

How the results depend on the processing

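The calls of IPP isomerase in Shine muscat against Victoria and against Centennial Seedless were kept under the other pseudocount, filters and scalings, with the replicate block and without any single library. With an added log2 fold change threshold of 2, the counts were 0 in Shine muscat against Victoria, 0 in Midknight Beauty against Victoria and 0 in the 6 contrasts among aromatic cultivars, and with an adjusted p under 0.005 and a log2 fold change of at least 1 the last was 2. An adjusted p of at most 0.05 gave 2 in Shine muscat and 1 in Summer Black against Victoria and 3 in the F test. Quantile normalization gave 2 in Shine muscat and the mean of 3 muscat cultivars 1, each against Victoria. These thresholds, normalization and mean have no background here. Fits of only the 2 cultivars compared gave 0 in Midknight Beauty against Victoria and 3 among aromatic cultivars (background above). Against Victoria they called 234 genes in place of 691 in Midknight Beauty, 384 (821) in Centennial Seedless and 411 (1787) in Summer Black. Over the libraries left out, calls among aromatic cultivars ranged from 2 to 6 and genes called in the F test from 1 to 2, and the other counts stayed as they were. VIT_04s0044g01740 in Shine muscat against Summer Black lost its call with no filter (adjusted p = 0.0137), median-of-ratios scaling (1.83, adjusted p = 0.0117) and quantile normalization (1.66, adjusted p = 0.017), and a filter at 5 FPKM left it untested. Its share in Summer Black was 0.911% after quantile normalization. In each case the cause was not tested.

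Among uncalled log2 fold changes, the sign turned for VIT_18s0122g00610 in Midknight Beauty (0.0103 with median-of-ratios scaling), VIT_04s0044g01740 in Centennial Seedless (0.10 with a pseudocount of 0.1) and IPP isomerase in Centennial Seedless (-0.0158 with median-of-ratios scaling, -0.0103 with quantile normalization). Over the libraries left out, FPP synthase ranged from -0.37 to 0.00102 in Shine muscat, from -0.37 to 0.0602 in Midknight Beauty, from -0.20 to 0.14 in Centennial Seedless and from -0.30 to 0.0455 in the muscat group. HMGS ranged from -0.0056 to 0.21 and VIT_18s0122g00610 from -0.27 to 0.29 in Midknight Beauty. In Centennial Seedless the ranges were -0.52 to 0.29 for VIT_04s0044g01740, -0.12 to 0.73 for VIT_03s0038g04100 and -0.0872 to 0.13 for IPP isomerase. Each of these is against Victoria. Scaling shifted the median of all genes by over 0.1 in contrasts of Shine muscat only: by -0.11 (median-of-ratios) against Victoria, by -0.13 (median-of-ratios) and -0.16 (quantile) against Summer Black and by -0.12 and -0.10 against Midknight Beauty.

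With the replicate block, the same 7 member calls were made as without it, and 2097 genes in place of 2048 were called in Shine muscat against Victoria. The labels give the numbers no shared vine, batch or day. The correlation of deviations between libraries of the same number ran from -0.35 to 0.60 over 30 pairs, with a median of 0.04, and 15 of the 30 were highest with their own number, where chance gives 10. Midknight Beauty and Centennial Seedless were the 1 of 10 cultivar pairs in which all 3 numbers were over 0.1 (0.59, 0.60 and 0.22), and there the replicate block kept the call of IPP isomerase (1.31, adjusted p = 0.000874). A random block for cultivar was run for the pooled muscat comparison only, with 0 members called.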
